A study of Mus musculus with 64 samples.

Results

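The striatum of 6-month-old mice heterozygous for the Q140 allele was compared with that of wild-type (WT) mice. The study holds 64 RNA sequencing libraries, from the striatum and cortex of 32 C57BL/6 mice in 4 genotypes. This comparison takes the 16 striatal libraries titled as heterozygous Q140 knock-in or as wild type, without the genotypes labelled Polq+/-. Each group held 8 mice, 4 females and 4 males, with 1 library per mouse. The labels give C57BL/6 as the strain, 6 months as the age and the dissected striatum as the tissue for both groups, and no treatment. All 18270 genes that passed the filter on low counts are considered, with weight on pathways and cell classes beyond the largest changes.

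Q140 is a knock-in: a long CAG tract, which encodes glutamine, replaces the short one in the first exon of the mouse huntingtin gene Htt and is read from the gene's own promoter in every cell that uses it. The animals model Huntington's disease, an inherited disorder in which the striatum degenerates first. Most striatal neurons are spiny projection neurons, GABA-releasing cells in 2 main kinds. Those of the direct pathway carry the dopamine receptor D1 and those of the indirect pathway the dopamine receptor D2, an adenosine receptor and enkephalin. In both kinds, receptors act through G proteins on adenylyl cyclase, cAMP, protein kinase A and the phosphatase inhibitor DARPP-32, and the messages for this machinery are known to fall early in the disease. In dissected tissue, fewer cells of a type and less RNA per cell cannot be told apart.

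The stretch of the mouse reference that carries the tract is shown because the allele has a longer tract there. It is the coding part of exon 1 of Htt, GRCm38 chr5:34761907-34762038 on the plus strand, read from the GENCODE genome. Capitals mark the 7 glutamine codons (6 CAG and 1 CAA) at positions 34761958 to 34761978.
Htt reference exon 1: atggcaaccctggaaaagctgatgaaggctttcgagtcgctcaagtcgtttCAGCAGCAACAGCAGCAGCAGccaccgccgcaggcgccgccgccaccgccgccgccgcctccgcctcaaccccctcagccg
The expanded tract itself was not read here: the deposited values are gene counts.

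The targeted gene and Polq were checked first. Htt had 185, 199 and 204 CPM in Q140 striatum, against 137, 212 and 220.4 CPM in WT striatum (log2 fold change -0.05, adjusted p = 0.534). CPM are read counts scaled to a common library size with TMM, and 3 values for a group are its lowest, median and highest mouse. The low WT value belongs to male 3, and the other 7 WT mice had 209 CPM or more. Without that mouse Htt was called lower in Q140 (log2 fold change -0.12, adjusted p = 2.56e-04). Polq, the polymerase that the other genotypes lack 1 copy of, stood at 2.24, 3.25 and 3.498 CPM in Q140 and 2.46, 3.11 and 4.08 CPM in WT striatum (log2 fold change -0.02, adjusted p = 0.97001). Library totals ran from 28.7 to 34.5 M counts in Q140 and from 32.9 to 40.2 M in WT striatum. A pair of WT libraries stood apart. In male 3, genes longer than 160000 bases were lower by a median of 0.162 and genes shorter than 5000 bases higher by 0.154 on the log2 scale. In male 2, the cerebellar granule cell genes Cbln3, Cbln1 and Gabra6 reached 60.7, 34.7 and 27.9 CPM, against at most 0.331, 0.977 and 0.0816 CPM in the other WT mice. Cbln3 and Cbln1 were called lower in Q140 with that mouse. Without it neither was, and Cbln3 was called higher (adjusted p = 0.0153). A list's counts without males 2 and 3 are given where its rises or falls move by 1.5 times or more.

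The change was broad and mostly small. Of the 18270 genes, 3095 were higher in Q140 and 2774 lower at an adjusted p under 0.05 (edgeR quasi-likelihood test, Benjamini-Hochberg), 32.1% in all, 16.9% higher and 15.2% lower. The median size of a called change was 0.219 on the log2 scale, and 3338 called genes (56.9%) changed by less than 0.25. A log2 change of 1 or more was called for 54 rises and 117 falls. In 744 genes every Q140 mouse lay above every WT mouse and in 764 every Q140 mouse lay below, together 8.25% of the genes tested (4.07% and 4.18%). The balance of directions depends on the scaling. TMM calls 52.7% of the called genes higher, whereas library totals alone call 5232 higher and 1849 lower (73.9% higher), with the median gene at 0.06 instead of 0.00. Deposited FPKM values, which are scaled by totals too, give 74.7% higher. A list's count of rises and falls is therefore read below against 16.9% and 15.2% of all genes, and counts on totals are given where a list's balance turns with the scaling. The lists were chosen with earlier results of these data known, so a list's share describes its members and is no test.

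Below the 10 largest changes in each direction, the next 15 were examined. The falls were Egr2, Phex, Il2rb, Slc4a11, Plk5, Tmprss6, Atp6v1c2, Ryr1, Mas1, Vwa7, Serpinb1b, Theg, Ankrd35, Odf4 and Tnfrsf25, with log2 fold changes of -1.86 to -1.47. Plk5, a polo-like kinase of neurons, had 11.4, 12.4 and 15.5 CPM in Q140 striatum, against 37.2, 42.1 and 45.1 CPM in WT striatum (log2 fold change -1.70, adjusted p = 5.02e-20). Ryr1, the ryanodine receptor that releases calcium from the endoplasmic reticulum, ran from 43.2 to 68.2 CPM (median 57.7) in Q140 mice and from 115 to 205 CPM (median 180.3) in WT mice (log2 fold change -1.64, adjusted p = 3.24e-14). Every Q140 mouse was below every WT mouse for 14 of these 15 genes, against 4.18% of all genes. The exception was Egr2, an activity-dependent transcription factor, whose mice ranged widely in both groups, from 2.44 to 14.04 CPM in Q140 and from 4.75 to 56.6 CPM in WT. The rises included Dsg1c, Ccdc87, Dsg2, Klhl14, Vill, Vwa5b2, Pcdhb2, Ipcef1, Greb1l, Amn, Zbtb7c, Pcdhb3, Sox11 and Pcdh19, at 1.12 to 0.92. Sox11, a transcription factor of immature neurons, had 26.8, 30.4 and 36.3 CPM in Q140 striatum, against 13.998, 15.97 and 18.2 CPM in WT striatum (log2 fold change 0.94, adjusted p = 9.85e-11). Vwa5b2 ran from 25.2 to 35.01 CPM (median 30.6) in Q140 mice and from 12.2 to 23.2 CPM (median 14.04) in WT mice (log2 fold change 1.05, adjusted p = 4.85e-09). The groups separated fully for 11 of these 15 rises, against 4.07% of all genes, and overlapped for Dsg1c, Klhl14, Greb1l and Amn. Both sets were ranked by fold change among called genes in these same mice, which favours separation. The share called was 35.8% of 14735 protein-coding genes, 23.1% of 545 long intergenic RNAs, 22.1% of 512 antisense RNAs and 10.9% of 1127 processed pseudogenes.

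**Figure D1:**
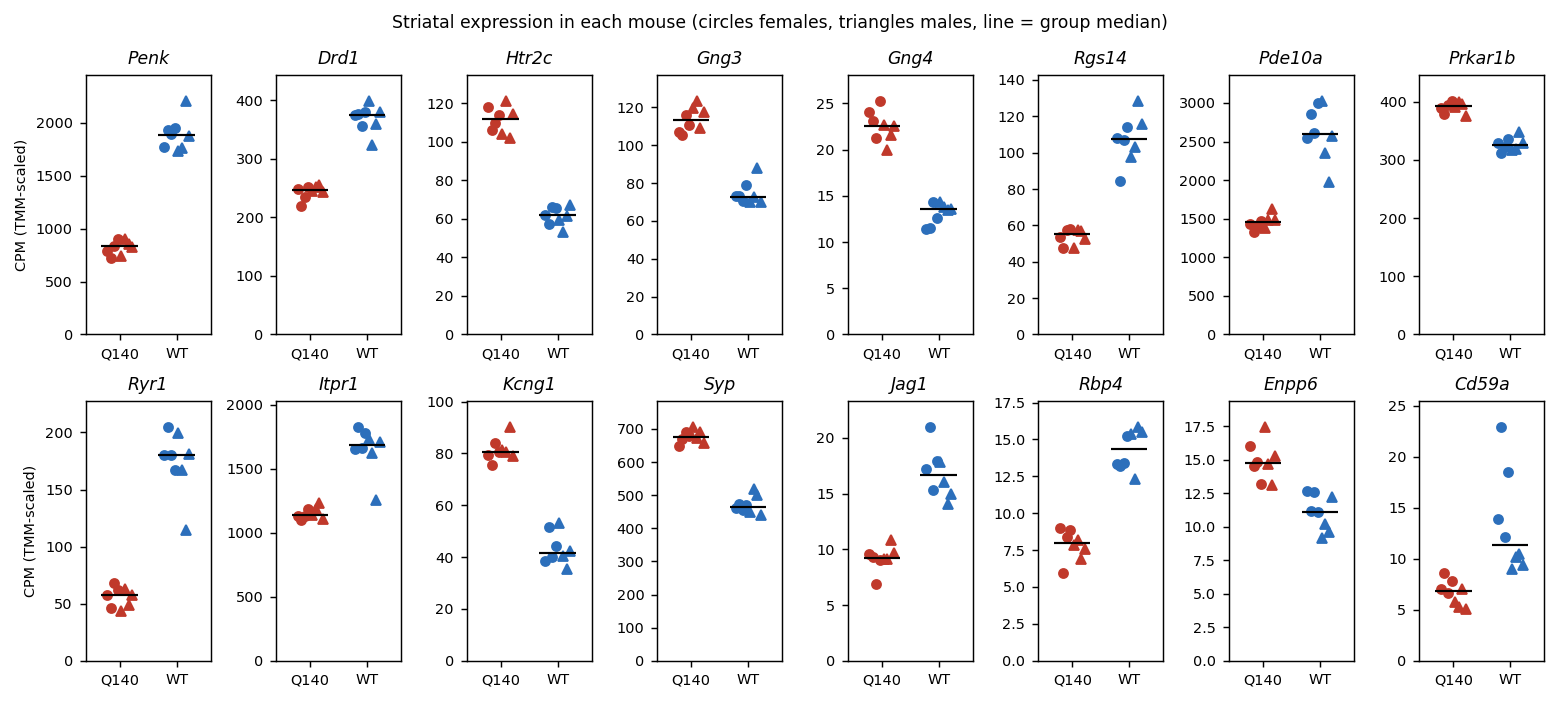
Expression of 16 genes in each of the 8 Q140 mice (left, red) and 8 WT mice (right, blue) of each panel, in TMM-scaled CPM on axes that start at 0; circles are females, triangles males and lines group medians. The groups do not overlap in any of the 16 panels, against 8.25% of all genes tested. The panels were picked by hand among called genes, so they do not show how common separation is. The lowest WT value of Ryr1, Itpr1 and Pde10a comes from 1 mouse.

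Genes that set striatum apart from cortex were followed next. To find them without using either group, the 8 Polq+/- mice alone were compared between tissues (difference over 2 on the log2 scale, adjusted p under 0.05, mean of at least 1 CPM in the richer tissue). Of 505 striatum-enriched genes, 246 were lower in Q140 (48.7%) and 50 higher (9.9%), with a median log2 fold change of -0.235. Of 632 cortex-enriched genes, 503 passed the low-count filter in striatum, and 95 of them were higher (18.9%) and 38 lower (7.55%), with a median of 0.04. The shares for all genes were 15.2% lower and 16.9% higher. The share lower grew with enrichment, at 26.4%, 32.7%, 39%, 46.8% and 53.2% of genes enriched in striatum by 0.5 to 1, 1 to 2, 2 to 3, 3 to 4 and over 4 on the log2 scale. On totals alone 230 striatum-enriched genes were lower and 68 higher. Among mice labelled Polq+/-, Q140 Polq+/- against Polq+/- gave 252 lower and 43 higher, but the Polq+/- mice also chose the list.

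Of the 505 genes, 375 belong to none of the lists below, and 184 of those fell. The named examples here were chosen after their values were seen, as the smallest p among unlisted genes. Ifi27l2b, an interferon-inducible family member, had 0, 0.0318 and 0.0906 CPM in Q140 striatum, against 1.24, 1.504 and 1.84 CPM in WT striatum (log2 fold change -5.07, adjusted p = 7.77e-18). That fold rests on 11 reads over the 8 Q140 libraries and 442 over the 8 WT libraries. Clspn, the replication checkpoint adaptor claspin, ran from 10.9 to 15.1 CPM (median 12.7) in Q140 mice and from 25.1 to 36.2 CPM (median 32.1) in WT mice (log2 fold change -1.27, adjusted p = 2.86e-17). Traip (-1.04), a ubiquitin ligase of replication forks, Krt9 (-1.28), a keratin, and Tesc (-0.55), a calcium-binding protein, also fell, and the groups of all 3 were apart. Cortex-enriched rises outside the lists included Ildr2 (0.88), Ipcef1 (1.02) and Miat (0.48), a long noncoding RNA. Ildr2 had 67.8, 74.96 and 78.4 CPM in Q140 striatum, against 34.6, 38.9 and 46.04 CPM in WT striatum. Rtn4r, the Nogo receptor, which limits axon growth, is cortex-enriched and fell: it ran from 0.694 to 1.29 CPM (median 0.948) in Q140 mice and from 1.103 to 3.87 CPM (median 1.82) in WT mice (log2 fold change -1.05, adjusted p = 7.10e-06).

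**Figure D2:**
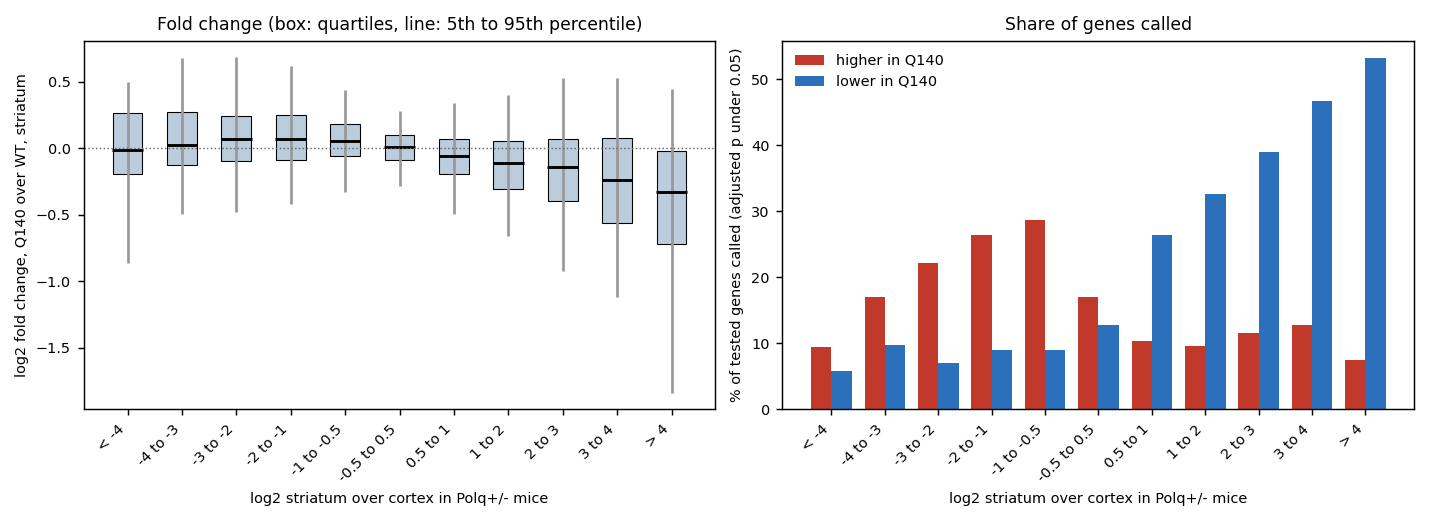
Left, log2 fold change of Q140 over WT in striatum for all tested genes in 11 bins of striatum-over-cortex enrichment measured in Polq+/- mice (line median, box quartiles, whisker 5th to 95th percentile); right, the percentage of each bin called higher (red, left bar) or lower (blue, right bar) in Q140. The share called lower is 53.2% in the most striatal bin, against 5.88% in the most cortical.

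Spiny neuron markers were the list with the most falls. All 26 tested genes of the shared list fell (median -0.52). In 21 of them every Q140 mouse lay below every WT mouse, against 4.18% of all genes. Like the other lists, this list was chosen with earlier results of these data known. The summed level of the list ran from 17418 to 20123 CPM in Q140 and from 25331 to 30765 CPM in WT. The difference between the next 2 lists, for the indirect and direct pathways, was not tested. Of 7 indirect pathway markers 5 fell, with a median of -0.655, and Penk, the enkephalin precursor, had 719, 833 and 900.0 CPM in Q140 striatum, against 1735, 1879.9 and 2210.0 CPM in WT striatum (log2 fold change -1.21, adjusted p = 1.30e-21). Of 9 direct pathway markers 5 fell and 2 rose, with a median of -0.20, with 4 rises and 4 falls on totals and 3 rises and 4 falls without WT males 2 and 3. Drd1, the D1 receptor, ran from 219.7 to 255 CPM (median 247) in Q140 mice and from 323 to 399.6 CPM (median 375) in WT mice (log2 fold change -0.60, adjusted p = 1.35e-15). Isl1, a transcription factor of developing direct pathway neurons, was higher: it had 19.8, 22.1 and 25.3 CPM in Q140 striatum, against 16.5, 17.6 and 18.7 CPM in WT striatum (log2 fold change 0.34, adjusted p = 5.98e-07). Tac1, the substance P precursor, ran from 227 to 254 CPM (median 249) in Q140 mice and from 196 to 283 CPM (median 233) in WT mice and did not pass the test (log2 fold change 0.09, adjusted p = 0.1602). Without WT male 3 it was called higher (log2 fold change 0.13, adjusted p = 0.00477).

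The compartments of the striatum were followed by 2 short lists. Of 10 striosome markers, 5 fell and 1 rose (0 rises and 5 falls without WT males 2 and 3), and the groups overlapped for all 10. The largest fall was Bach2, a transcriptional repressor, which had 8.83, 10.7 and 13.2 CPM in Q140 striatum, against 11.9, 16.4 and 19.9 CPM in WT striatum (log2 fold change -0.57, adjusted p = 0.00182). Kremen1 ran from 33.4 to 44.2 CPM (median 37.6) in Q140 mice and from 35.3 to 53.7 CPM (median 47.6) in WT mice (log2 fold change -0.28, adjusted p = 1.34e-04). Of 7 matrix markers, 2 fell with groups apart and 1 rose (3 rises and 2 falls on totals). Rasgrp2, also called CalDAG-GEFI, which activates Rap, had 275, 283 and 301 CPM in Q140 striatum, against 381, 448 and 503 CPM in WT striatum (log2 fold change -0.64, adjusted p = 4.48e-15). Id4, an inhibitor of basic helix-loop-helix factors, ran from 124 to 153 CPM (median 138) in Q140 mice and from 175 to 248 CPM (median 201) in WT mice (log2 fold change -0.57, adjusted p = 5.15e-10). Gda, guanine deaminase, rose by 0.28 and its groups overlapped. Eccentric spiny neurons, a small population beside the main kinds, had 2 rises and 1 fall in 7 markers (3 rises and 1 fall without WT males 2 and 3): Col11a1, a fibrillar collagen, had 11.8, 12.6 and 16.7 CPM in Q140 striatum, against 6.74, 7.95 and 9.96 CPM in WT striatum (log2 fold change 0.72, adjusted p = 6.29e-08), and Otof, the calcium sensor otoferlin, changed by -0.51.

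None of the 5 messages for making and moving GABA, which nearly all striatal neurons share, was called lower, and 2 rose (1 without WT males 2 and 3). Gad1, the main synthetic enzyme, had 615, 637 and 663 CPM in Q140 striatum, against 598, 637 and 709 CPM in WT striatum (log2 fold change -0.00, adjusted p = 0.933). Slc32a1, the vesicular GABA transporter, ran from 335 to 356 CPM (median 352) in Q140 mice and from 314 to 364 CPM (median 341) in WT mice (log2 fold change 0.04, adjusted p = 0.241), and on totals it was called higher at 0.10. Summed over the 5 genes of the list the level was 2530.4 to 2664 CPM in Q140 and 2311 to 2629 CPM in WT, so the ranges overlap.

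Of the interneuron lists, 2 held no call. None of 7 cholinergic markers and none of 6 markers of Sst, Npy and Nos1 neurons was called by edgeR at an adjusted p under 0.05, against 32.1% of all genes. DESeq2 called 0 and 1. At an unadjusted p under 0.05 the counts were 0 and 1. Chat, the acetylcholine-synthesizing enzyme, had 27.8, 33.04 and 38.01 CPM in Q140 striatum, against 31.96, 33.5 and 40.2 CPM in WT striatum (log2 fold change -0.06, adjusted p = 0.501). Sst, the somatostatin precursor, ran from 100.5 to 125 CPM (median 118) in Q140 mice and from 113 to 159 CPM (median 121) in WT mice (log2 fold change -0.08, adjusted p = 0.242). With a term for the column of the well address, edgeR called 2 of those 6 lower: Sst at -0.14 (adjusted p = 0.0365) and Npy at -0.23 (adjusted p = 0.0248). That fit used all 32 striatal libraries. Of the 16 compared here, column 1 held WT libraries only, and it also held libraries of mice labelled Polq+/-. Without WT male 3 the nitric oxide synthase Nos1 was called lower (log2 fold change -0.12, adjusted p = 0.0195). Npy, neuropeptide Y, lay near the threshold (log2 fold change -0.17, adjusted p = 0.0576). It was called lower by DESeq2, and by edgeR without Q140 female 4, WT female 1, WT male 1 or WT male 4 (adjusted p = 0.0177 to 0.0476). Of 7 markers of Pvalb neurons 2 fell: Syt2, a fast calcium sensor of vesicle release, at -0.62, and the receptor kinase Kit at -0.12, which was not called on totals (adjusted p = 0.1801). Pvalb itself had 4.49, 6.23 and 14.8 CPM in Q140 striatum, against 4.83, 7.04 and 25.1 CPM in WT striatum (log2 fold change -0.11, adjusted p = 0.849), and its highest WT value is that of male 2. In the list for Th, calretinin and Cck neurons 3 of 6 markers were called, 1 higher and 2 lower (1 rise and 1 fall without WT males 2 and 3). Th itself was not called. With the term for the well column, edgeR called it lower (log2 fold change -0.31, adjusted p = 0.0105). It was also called lower without Q140 male 2 (adjusted p = 0.0315) or WT female 2 (adjusted p = 0.0427). Cck, the cholecystokinin precursor, was higher (log2 fold change 0.34, adjusted p = 0.0134), and its groups overlapped. The cannabinoid receptor Cnr1, which spiny neurons also make, ran from 218 to 294 CPM (median 236) in Q140 mice and from 368 to 579 CPM (median 451) in WT mice (log2 fold change -0.93, adjusted p = 1.36e-09). Calb2 was called lower (-0.92), but 1 WT library, male 2, carried 12.1 CPM against a WT median of 1.77 CPM, and without it the adjusted p was 0.238. The call was also lost without any 1 of the 4 Q140 males (adjusted p = 0.0581 to 0.0689), on the 16 libraries alone (0.178) and on FPKM (0.145 and 0.157). That library also holds the cerebellar genes, and their part in the call was not tested.

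Markers of neurons from outside the striatum were low. Of 11 tested cortical excitatory markers 4 rose. Among them Cux2, an upper-layer factor, ran from 16.4 to 17.8 CPM (median 16.6) in Q140 mice and from 10.9 to 16.9 CPM (median 12.3) in WT mice (log2 fold change 0.40, adjusted p = 1.67e-05). The defining cortical genes were near 0 or level: Neurod6 was at or under 0.392 CPM in all Q140 mice and 0.386 CPM in all WT mice, and Slc17a7, the vesicular glutamate transporter, had 2.44, 2.91 and 4.53 CPM in Q140 striatum, against 2.47, 2.91 and 23.1 CPM in WT striatum (log2 fold change -0.81, adjusted p = 0.109), its highest WT value again in male 2. Choroid plexus and ependymal lists had no call by edgeR in 9 tested members each, with 0 and 0 at an unadjusted p under 0.05 and 0 and 0 called by DESeq2. Ttr, the choroid plexus transthyretin, spread from 0.936 to 14.1 CPM in Q140 and from 0.524 to 9.25 CPM in WT.

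**Figure D3:**
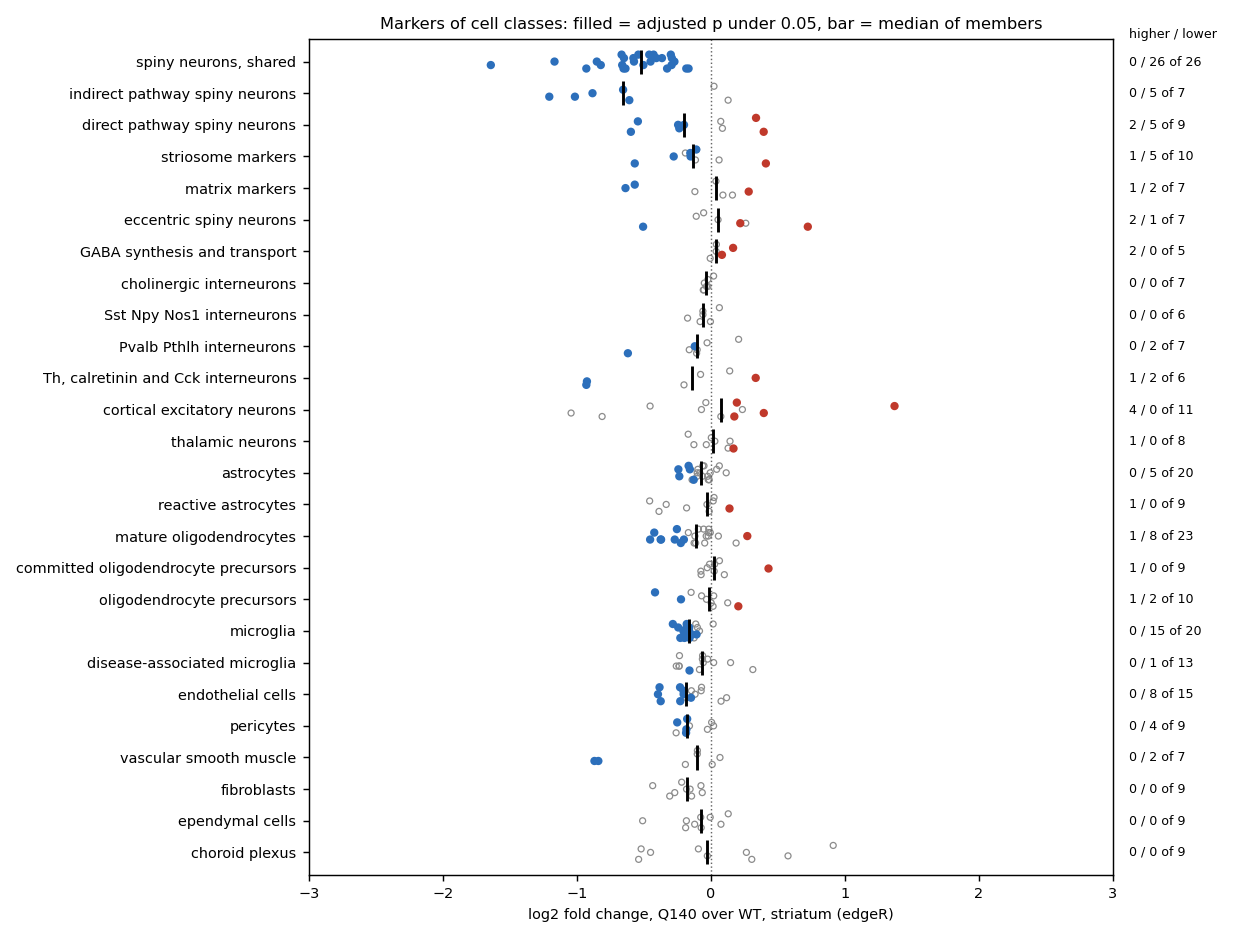
Log2 fold change of Q140 over WT in striatum for each tested member of 26 lists of cell-class markers; filled dots passed the test (red higher, blue lower in Q140), open dots did not, black bars are list medians and the numbers at the right give members higher, lower and tested. The shared spiny neuron list lies wholly left of 0, while the cholinergic and Sst lists hold no filled dot.

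Among glial lists, microglial genes fell in 15 of 20 members, by a median of 0.161, and none rose. Selplg, a surface ligand of selectins, had 27.1, 29.3 and 30.8 CPM in Q140 striatum, against 31.5, 33.9 and 34.998 CPM in WT striatum (log2 fold change -0.20, adjusted p = 3.06e-05). Olfml3 ran from 14.3 to 17.3 CPM (median 15.4) in Q140 mice and from 17.96 to 20.2 CPM (median 18.8) in WT mice (log2 fold change -0.28, adjusted p = 3.20e-05). The count was 6 of 20 on totals, and 2 of 20 in Q140 Polq+/- against Polq+/- mice. Without WT males 2 and 3 it was 12 of 20. Of 13 genes of the disease-associated microglial state 1 was called, Tyrobp (-0.17), and that call was lost without WT male 3 (adjusted p = 0.0606) or without Q140 male 2 (adjusted p = 0.0596). On totals that list held 1 rise and 0 falls. Astrocyte genes fell in 5 of 20, none on totals, with Sox9, a transcription factor, at -0.23 and Glul, glutamine synthetase, at -0.13, a call lost without WT males 2 and 3 (adjusted p = 0.0635). Of 9 tested reactive astrocyte genes 1 rose, the transcription factor Stat3 (0.13), and Gfap, an intermediate filament of astrocytes, had 16.3, 28.3 and 39.1 CPM in Q140 striatum, against 19.002, 35.3 and 48.7 CPM in WT striatum (log2 fold change -0.39, adjusted p = 0.166).

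Oligodendrocyte markers were listed by stage. Of 23 markers of mature cells 8 fell and 1 rose, with a median of -0.113 (2 rises and 5 falls without WT males 2 and 3). Car2, carbonic anhydrase 2, had 114, 125 and 133 CPM in Q140 striatum, against 135, 165 and 209 CPM in WT striatum (log2 fold change -0.42, adjusted p = 2.14e-05). The myelin lipid enzymes Fa2h (-0.37) and Ugt8a (-0.37) fell as well, while Mbp, myelin basic protein, ran from 2656 to 3271 CPM (median 2866) in Q140 mice and from 2645 to 3606 CPM (median 3103) in WT mice (log2 fold change -0.12, adjusted p = 0.0953). Mbp was called lower without WT female 2 (adjusted p = 0.0279) or WT male 1 (adjusted p = 0.0498). Of 9 markers of committed precursors 1 was called, and it rose: Enpp6, a choline phosphodiesterase of newly forming cells, had 13.1, 14.8 and 17.5 CPM in Q140 striatum, against 9.17, 11.1 and 12.6 CPM in WT striatum (log2 fold change 0.42, adjusted p = 4.57e-06). In oligodendrocyte precursors 2 of 10 fell and 1 rose, but there were 2 rises and 1 fall on totals and 2 rises and 2 falls without WT males 2 and 3. Pdgfra, their growth factor receptor, ran from 41.4 to 49.2 CPM (median 45.1) in Q140 mice and from 38.3 to 48.97 CPM (median 45.8) in WT mice (log2 fold change 0.02, adjusted p = 0.799). The largest fall in that list, Cacng4 (-0.42), is a calcium channel and AMPA receptor subunit that neurons make too.

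Endothelial markers fell in 8 of 15 members and pericyte markers in 4 of 9, none rose, and the groups overlapped in every one. Emcn, the endothelial sialomucin endomucin, had 4.37, 5.25 and 5.71 CPM in Q140 striatum, against 5.64, 6.46 and 8.51 CPM in WT striatum (log2 fold change -0.38, adjusted p = 3.83e-04). Pdgfrb, the pericyte growth factor receptor, ran from 23.2 to 27.5 CPM (median 25.9) in Q140 mice and from 25.4 to 31.6 CPM (median 30.5) in WT mice (log2 fold change -0.18, adjusted p = 0.00198). On totals 6 endothelial genes fell and 1 rose, and 1 pericyte gene fell. The endothelial list held 1 rise and 8 falls without WT males 2 and 3. A pair of smooth muscle genes fell further, with groups apart: Tagln (-0.87) and Tpm2 (-0.84), both actin-binding. The other 5 tested smooth muscle genes were not called. None of 9 fibroblast markers was called by edgeR, with 2 at an unadjusted p under 0.05 and 0 called by DESeq2.

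**Figure D4:**
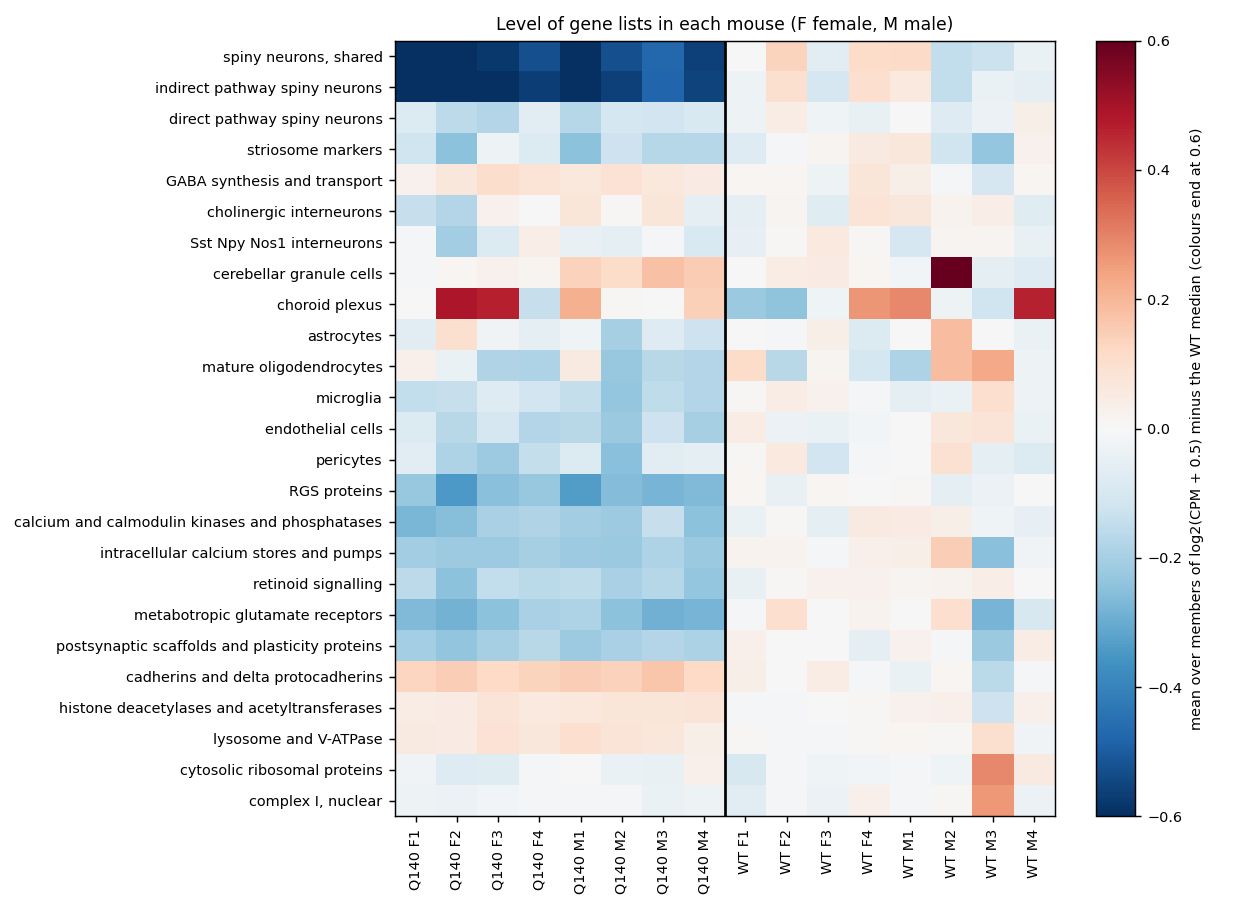
Level of 25 gene lists in each mouse, as the mean over members of log2(CPM + 0.5) minus the WT median of each gene; the 8 Q140 mice are left of the black line and the 8 WT mice right of it, and colours end at 0.6. The shared spiny neuron list is low in every Q140 mouse, and WT M2 (cerebellar genes) and WT M3 (ribosomal and complex I genes) stand apart from the other WT mice.

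Receptors at the head of the cAMP chain changed in both directions. Of 32 tested receptors for monoamines, purines, acetylcholine and opioids, 9 fell and 5 rose (3 rises and 11 falls without WT males 2 and 3). Adora2a, the striatal adenosine receptor, had 228, 251 and 285 CPM in Q140 striatum, against 412, 458 and 545 CPM in WT striatum (log2 fold change -0.88, adjusted p = 1.64e-16). Drd2 ran from 155 to 179 CPM (median 168) in Q140 mice and from 231 to 283 CPM (median 253) in WT mice (log2 fold change -0.61, adjusted p = 4.85e-16). Adra2c, an adrenergic receptor of spiny neurons, fell by 0.47 with groups apart. Against these, Htr2c, the serotonin 2C receptor, was higher: it had 102, 112 and 121 CPM in Q140 striatum, against 53.4, 61.9 and 66.98 CPM in WT striatum (log2 fold change 0.85, adjusted p = 5.95e-16). It is the 1 receptor of the list in which every Q140 mouse lay above every WT mouse. Orphan receptors of the striatum fell in 7 of 11 and rose in 3, with a median of -0.41. Gpr155, a membrane protein of lysosomes, ran from 186 to 229 CPM (median 204) in Q140 mice and from 236 to 344 CPM (median 271) in WT mice (log2 fold change -0.44, adjusted p = 4.47e-08). Gpr83 (-0.50) fell as well, while Gpr149 (0.77) rose.

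RGS proteins, which shorten G protein signals, fell in 10 of 17 and rose in 1 (8 and 1 on totals), with a median of -0.18. Rgs14 had 47.6, 55.2 and 57.9 CPM in Q140 striatum, against 84.5, 108 and 129 CPM in WT striatum (log2 fold change -0.99, adjusted p = 5.44e-15). Rgs4 ran from 454 to 546 CPM (median 512) in Q140 mice and from 660.1 to 1028 CPM (median 833) in WT mice (log2 fold change -0.75, adjusted p = 3.44e-13). Rgs9, whose striatal form dampens D2 and opioid signals, and Rgs11 fell by similar amounts (-0.66 and -0.67). Gnb5, the G beta subunit that stabilizes Rgs9 and Rgs11, fell too (-0.42). The rise was Rgs19 (0.74), and its groups were apart. The 24 G protein subunits held 6 rises and 6 falls (11 rises and 5 falls on totals). The gamma subunits Gng3 and Gng4 rose most: Gng3 had 106, 113 and 124 CPM in Q140 striatum, against 70.04, 72.7 and 87.9 CPM in WT striatum (log2 fold change 0.61, adjusted p = 4.26e-14), and Gng4 ran from 19.997 to 25.3 CPM (median 22.6) in Q140 mice and from 11.4 to 14.3 CPM (median 13.5) in WT mice (log2 fold change 0.78, adjusted p = 6.18e-13). The alpha subunit Gnao1 changed by -0.18.

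Further down, 2 of 9 adenylyl cyclases fell, and 4 without WT males 2 and 3, among them Adcy5, the striatal form that dopamine and adenosine receptors act on, which had 1222, 1307 and 1456 CPM in Q140 striatum, against 1752, 2115 and 2290.4 CPM in WT striatum (log2 fold change -0.67, adjusted p = 2.01e-15). Protein kinase A and its anchors held 5 rises and 2 falls in 14 genes, and 6 and 5 without WT males 2 and 3. The regulatory subunit Prkar1b ran from 375 to 402 CPM (median 393) in Q140 mice and from 311 to 348 CPM (median 325) in WT mice (log2 fold change 0.26, adjusted p = 3.60e-11). Prkar2a, another regulatory subunit, rose by 0.30 and the catalytic subunit Prkacb by 0.15, each with groups apart. The inhibitor Pkig fell (-0.30) and the inhibitor Pkia rose (0.21). Phosphodiesterases, which end the cAMP and cGMP signals, fell in 7 of 19 and rose in 3. Pde10a, the form concentrated in spiny neurons, had 1329, 1451 and 1628 CPM in Q140 striatum, against 1975, 2594 and 3031 CPM in WT striatum (log2 fold change -0.85, adjusted p = 4.59e-14). Pde1b (-0.65) and Pde7b (-0.47) fell with groups apart, while Pde4d rose (0.42). None of 6 soluble guanylyl cyclase and cGMP kinase genes was called by edgeR, with 1 at an unadjusted p under 0.05 and 0 called by DESeq2, and 1 called lower by edgeR without WT males 2 and 3.

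Of 22 neuropeptide precursors 6 fell and 3 rose (5 rises and 4 falls on totals and 4 rises and 4 falls without WT males 2 and 3), at log2 fold changes of -1.99 to 0.73. The lowest was Crh, corticotropin-releasing hormone, chosen after its values were seen, which had 0.0682, 0.172 and 0.265 CPM in Q140 striatum, against 0.221, 0.322 and 2.77 CPM in WT striatum (log2 fold change -1.99, adjusted p = 6.20e-04). The highest WT value is that of male 2, and without it the log2 fold change was -1.34. Chgb, a secretory granule protein, fell by 0.31, and Scg5, a chaperone of prohormone convertase, rose by 0.24. Nts, neurotensin, had 4.16, 5.06 and 6.33 CPM in Q140 striatum, against 1.74, 3.05 and 4.91 CPM in WT striatum (log2 fold change 0.73, adjusted p = 9.70e-04), and its groups overlapped.

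Calcium and calmodulin kinases and phosphatases fell in 14 of 24 with 1 rise (13 and 2 on totals, 15 and 3 without WT males 2 and 3), and in 10 of them the groups were apart, against 4.18% of all genes. Pcp4, which speeds calcium exchange on calmodulin, had 307, 344 and 373 CPM in Q140 striatum, against 484, 548 and 617 CPM in WT striatum (log2 fold change -0.67, adjusted p = 6.93e-15). Ppp3ca, the catalytic subunit of calcineurin, ran from 2056 to 2429.6 CPM (median 2172) in Q140 mice and from 2716 to 3159 CPM (median 3007) in WT mice (log2 fold change -0.44, adjusted p = 1.37e-12). The CaMKII inhibitor Camk2n1 (-0.49), the pseudokinase Camkv (-0.41) and the CaMKII subunit Camk2b (-0.34) fell with groups apart. Calcium sensors and buffers fell in 9 of 19 with 1 rise (2 rises and 9 falls without WT males 2 and 3). Hpca, the sensor hippocalcin, had 1121, 1221 and 1311 CPM in Q140 striatum, against 1565, 1709 and 1995 CPM in WT striatum (log2 fold change -0.54, adjusted p = 1.35e-12). Necab2 (-0.32) and Kcnip2 (-0.36), a sensor that also serves potassium channels, fell less.

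Stores and pumps for calcium fell in 12 of 27 and rose in 3, 12 and 4 on totals. Beside Ryr1, Itpr1, the IP3 receptor of the endoplasmic reticulum, had 1103, 1138 and 1234 CPM in Q140 striatum, against 1253, 1688 and 1828 CPM in WT striatum (log2 fold change -0.52, adjusted p = 4.88e-12). WT male 3 had the lowest WT value of both genes, and both groups were still apart. Itpka, a kinase that removes IP3, ran from 98.8 to 111 CPM (median 108) in Q140 mice and from 144 to 177 CPM (median 160.4) in WT mice (log2 fold change -0.57, adjusted p = 4.29e-15). Homer1, a scaffold that ties metabotropic receptors to these channels, fell by 0.80, and the plasma membrane pump Atp2b1 fell by 0.49. Diacylglycerol kinases and protein kinase C forms were mixed, with 7 falls and 4 rises in 19 (6 rises and 6 falls on totals). Prkcb (-0.47) fell with overlapping groups, Dgkb (-0.34) fell and Dgke (0.24) rose with groups apart.

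The MAPK pathway and its feedback regulators fell in 14 of 37 with 3 rises (10 and 6 on totals). Hras, a Ras GTPase, had 102, 106 and 114 CPM in Q140 striatum, against 143, 154 and 173 CPM in WT striatum (log2 fold change -0.53, adjusted p = 8.69e-15). Ptpn5, the striatum-enriched phosphatase STEP that turns off ERK, ran from 688 to 803 CPM (median 748) in Q140 mice and from 967 to 1173 CPM (median 1065) in WT mice (log2 fold change -0.50, adjusted p = 3.07e-13). The feedback inhibitor Spry2 fell by 0.47. In Q140 Polq+/- against Polq+/- mice the same list had 19 falls and 1 rise. Insulin and mTOR genes split 7 to 7 among 30 (12 rises and 6 falls on totals), with Akt2 (-0.41) and the mTOR inhibitor Deptor (-0.53) among the falls. Ddit4l, another mTOR inhibitor, had 8.12, 8.92 and 10.4 CPM in Q140 striatum, against 34.8, 40.2 and 48.1 CPM in WT striatum (log2 fold change -2.16, adjusted p = 9.34e-22).

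Retinoid signalling fell in 8 of 17 tested genes and rose in none (6 and 1 on totals, 8 and 1 without WT males 2 and 3). Retinoic acid is a developmental signal of the striatum, and its receptors stay in adult spiny neurons. Rbp4, the retinol carrier, had 5.96, 8.004 and 8.997 CPM in Q140 striatum, against 12.3, 14.3 and 15.9 CPM in WT striatum (log2 fold change -0.87, adjusted p = 4.74e-10). Dhrs3, a retinal reductase, ran from 6.91 to 9.601 CPM (median 8.19) in Q140 mice and from 11.4 to 16.6 CPM (median 12.7) in WT mice (log2 fold change -0.73, adjusted p = 2.60e-08). The receptors Rarb (-0.35), Rxrb (-0.20) and Rxrg (-0.54) fell, all with groups apart.

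Wnt genes were called about as often as all genes (31.1% against 32.1%): they fell in 11 of 45 and rose in 3, but 9 to 9 on totals, and Tcf7, a transcription factor of the pathway, had 11.2, 13.7 and 16.9 CPM in Q140 striatum, against 20.8, 22.5 and 26.7 CPM in WT striatum (log2 fold change -0.72, adjusted p = 1.41e-11). The ligand Wnt4 ran from 0.641 to 2.05 CPM (median 1.09) in Q140 mice and from 2.75 to 4.44 CPM (median 3.36) in WT mice (log2 fold change -1.43, adjusted p = 1.24e-08). Notch genes fell in 5 of 18 (2 on totals) and none rose. Their ligand Jag1 had 6.92, 9.23 and 10.8 CPM in Q140 striatum, against 14.05, 16.6 and 20.99 CPM in WT striatum (log2 fold change -0.87, adjusted p = 1.57e-10). BMP and TGF beta genes fell in 15 of 39 and rose in 3, 10 and 8 on totals. Acvr2a, an activin receptor, was the clearest rise: it ran from 47.7 to 53.1 CPM (median 50.4) in Q140 mice and from 35.98 to 43.6 CPM (median 36.9) in WT mice (log2 fold change 0.41, adjusted p = 1.13e-11). The receptor Acvr1c (-0.54) and the activin antagonist Fst (-0.72) fell. Neurotrophin and GDNF family genes fell in 5 of 12 and none rose. Nrtn, neurturin, a survival factor for dopamine neurons, had 1.25, 1.68 and 2.35 CPM in Q140 striatum, against 3.09, 4.01 and 5.14 CPM in WT striatum (log2 fold change -1.25, adjusted p = 1.27e-10). Ntrk3, the receptor for neurotrophin-3, fell by 0.39.

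Endocannabinoid genes other than Cnr1 held 3 rises and 1 fall, and the whole list 2 rises and 2 falls without WT males 2 and 3. Faah, the enzyme that breaks down anandamide, had 19.6, 23.7 and 24.7 CPM in Q140 striatum, against 13.3, 14.9 and 20.6 CPM in WT striatum (log2 fold change 0.60, adjusted p = 5.41e-10), and Cnrip1, a receptor-interacting protein, rose by 0.35. Dagla, the synthetic enzyme of 2-arachidonoylglycerol, fell by 0.27.

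Of 57 potassium channel genes 13 fell and 7 rose, and 11 did each on totals. Kcnh4, a voltage-gated channel of the striatum, had 48.8, 52.5 and 56.6 CPM in Q140 striatum, against 84.2, 107 and 119 CPM in WT striatum (log2 fold change -0.99, adjusted p = 2.86e-17). Kcng1, a silent subunit that changes Kv2 channels, ran from 75.6 to 90.3 CPM (median 80.7) in Q140 mice and from 35.5 to 53.2 CPM (median 41.4) in WT mice (log2 fold change 0.91, adjusted p = 1.32e-14). Kcnh3 (-0.50), Kcnab1 (-0.56) and Kcnj4 (-0.45), an inward rectifier, fell, all with groups apart. Sodium channel genes held 4 of each in 13 (4 rises and 3 falls on totals). Scn9a, a channel best known from sensory neurons, had 13.4, 16.9 and 21.4 CPM in Q140 striatum, against 6.82, 8.84 and 11.5 CPM in WT striatum (log2 fold change 0.92, adjusted p = 1.24e-06). Scn4b, a beta subunit enriched in spiny neurons, fell by 1.17, and the beta subunit Scn3b rose by 0.29. Calcium channel subunits fell in 8 of 22 and rose in 5 (9 rises and 8 falls on totals). Cacnb1 (-0.37) and Cacna2d3 (-0.36) fell while Cacna2d1 (0.32) rose, each with groups apart.

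At excitatory synapses, postsynaptic scaffolds and plasticity proteins fell in 16 of 29 and rose in 3, 15 and 6 on totals, with a median of -0.18. Dlgap3, a partner of PSD-95 concentrated in striatum, had 569, 584 and 631 CPM in Q140 striatum, against 753, 823 and 882 CPM in WT striatum (log2 fold change -0.46, adjusted p = 1.20e-14). Ppp1r9b, the spine protein spinophilin, ran from 922 to 1062 CPM (median 984) in Q140 mice and from 1251 to 1479 CPM (median 1346) in WT mice (log2 fold change -0.46, adjusted p = 4.90e-14). Baiap2 (-0.42) and Shank3 (-0.52), a scaffold linked to autism, fell with groups apart as well. Of 7 metabotropic glutamate receptors 5 fell and 1 rose. Grm5, a receptor of spiny neurons that acts through phospholipase C, had 382, 412 and 425 CPM in Q140 striatum, against 393, 503 and 529 CPM in WT striatum (log2 fold change -0.26, adjusted p = 1.55e-06). Ionotropic receptors and their auxiliaries fell in 11 of 23 and rose in 3, but 5 fell and 6 rose on totals, and 12 fell and 2 rose without WT males 2 and 3. Neto2, a kainate receptor auxiliary, ran from 102 to 125 CPM (median 112) in Q140 mice and from 176 to 228 CPM (median 201) in WT mice (log2 fold change -0.84, adjusted p = 8.31e-17). The kainate subunit Grik2 fell by 0.51, and the AMPA receptor auxiliary Cnih3 rose by 0.67.

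Receptors for GABA and glycine held 7 rises and 2 falls in 21, and 8 and 5 without WT males 2 and 3. Gabrd, the delta subunit of extrasynaptic receptors, was the largest fall: it had 100.1, 106 and 110.0 CPM in Q140 striatum, against 148, 161 and 168 CPM in WT striatum (log2 fold change -0.60, adjusted p = 6.14e-18). Glra2, a glycine receptor subunit, ran from 10.9 to 14.2 CPM (median 12.2) in Q140 mice and from 6.97 to 8.62 CPM (median 7.92) in WT mice (log2 fold change 0.66, adjusted p = 1.54e-10). The machinery of vesicle release held 11 rises and 9 falls in 43. Syp, the vesicle protein synaptophysin, had 648, 677 and 706 CPM in Q140 striatum, against 441, 465 and 519 CPM in WT striatum (log2 fold change 0.52, adjusted p = 2.77e-16). Unc13b, a priming factor, rose by 0.54, while Syt9 (-0.71) and Syt12 (-0.31) fell, all with groups apart.

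Synaptic adhesion and organizer genes held 13 rises and 9 falls in 45 (23 and 6 on totals). Slitrk6 had 7.92, 8.74 and 10.3 CPM in Q140 striatum, against 2.51, 4.05 and 4.89 CPM in WT striatum (log2 fold change 1.14, adjusted p = 3.37e-11). Cntnap3, a contactin-associated protein, ran from 18.5 to 22.9 CPM (median 21.3) in Q140 mice and from 28.01 to 47.02 CPM (median 40.3) in WT mice (log2 fold change -0.88, adjusted p = 7.10e-10). Cntn6 (0.43) and Lrrtm4 (0.31), which organize synapses, rose. Cadherins and delta protocadherins held 9 rises and 3 falls in 26, with a median of 0.12, and 8 and 5 without WT males 2 and 3. Pcdh20 had 17.4, 19.1 and 22.2 CPM in Q140 striatum, against 6.46, 7.51 and 9.91 CPM in WT striatum (log2 fold change 1.28, adjusted p = 3.25e-16), and Pcdh10 (0.45) and Cdh18 (0.81) rose with groups apart. Ephrins, Slits, netrins and their receptors held 12 rises and 4 falls in 35. The ligand Efnb3 fell by 0.33, and the Slit receptor Robo1 rose by 0.25.

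**Figure D5:**
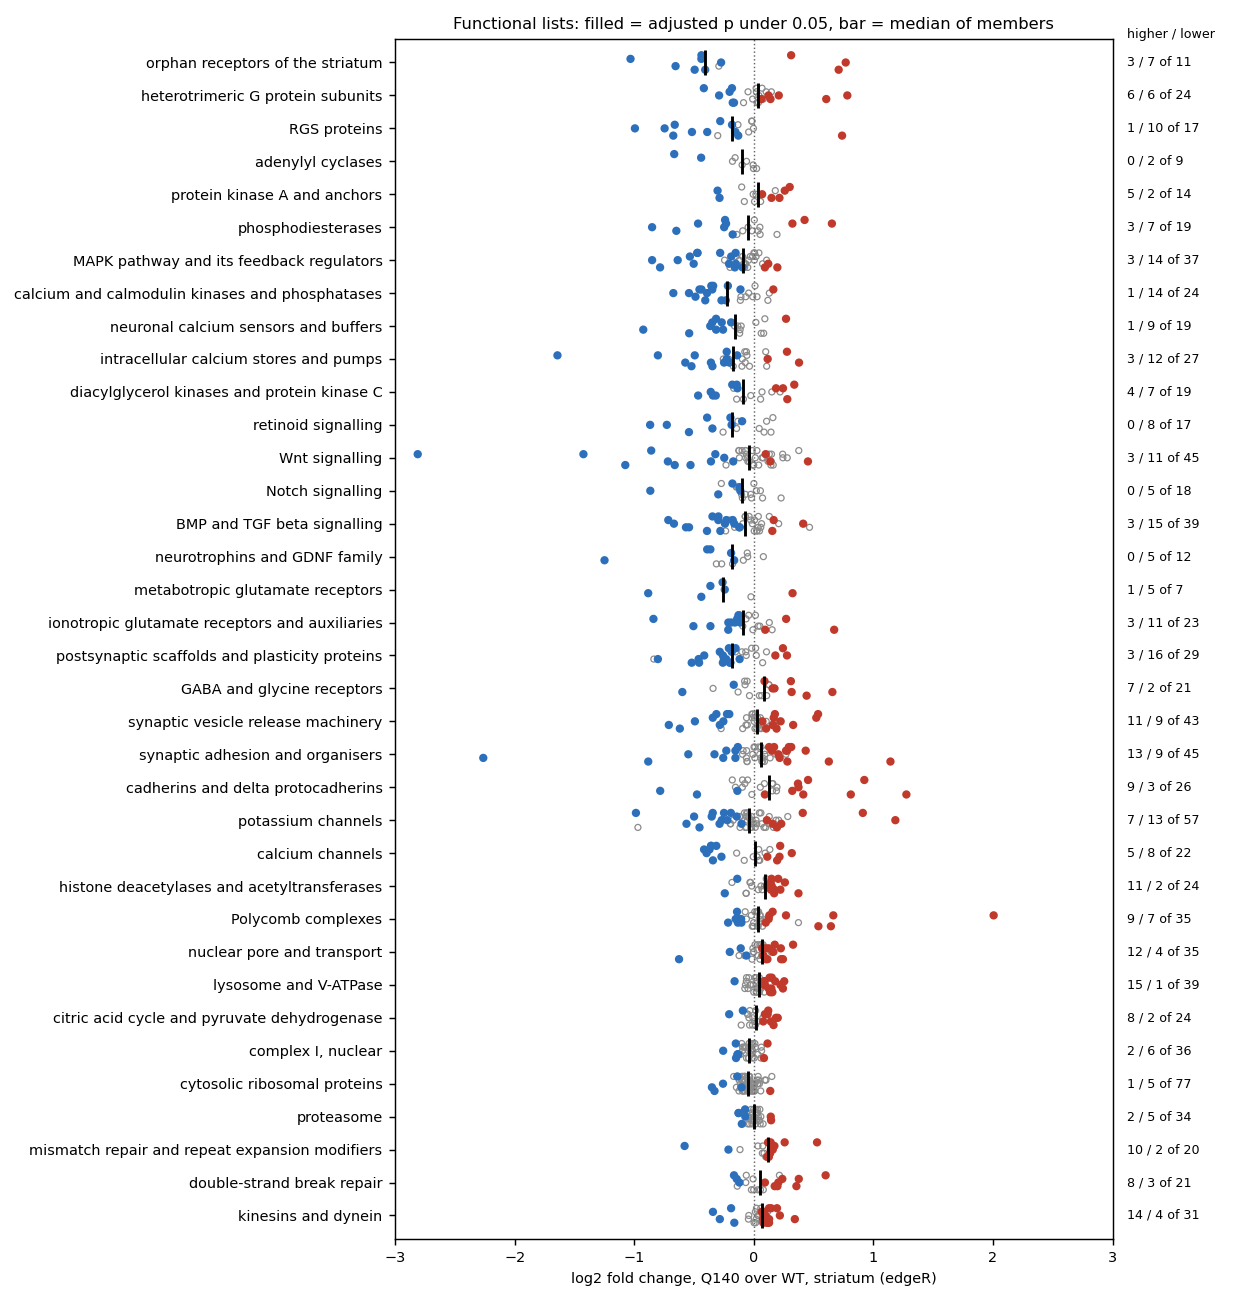
Log2 fold change of Q140 over WT in striatum for each tested member of 36 functional lists; filled dots passed the test (red higher, blue lower in Q140), open dots did not, bars are list medians and the numbers give members higher, lower and tested. The medians of the calcium kinase, sensor and store, RGS, retinoid and postsynaptic lists lie left of 0. Those of cadherins and lysosomal genes lie right of it. On library totals, lists whose counts no longer lean to falls include complex I, proteasome, ionotropic glutamate receptors and Wnt. Potassium channels, calcium channels, diacylglycerol kinases with protein kinase C, and cytosolic ribosomal proteins are also among them.

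In the nucleus, transcription factors that define spiny neurons held 9 falls and 9 rises in 28 (9 and 14 on totals). Klf16 had 75.7, 81.4 and 87.8 CPM in Q140 striatum, against 100.5, 113 and 122 CPM in WT striatum (log2 fold change -0.46, adjusted p = 8.77e-13). Meis2 (-0.30) fell and Bcl11a (0.22) rose, both with groups apart. Histone deacetylases and acetyltransferases held 11 rises and 2 falls in 24, with a median of 0.10, and 10 and 4 without WT males 2 and 3. Hdac1 ran from 8.46 to 9.998 CPM (median 8.9995) in Q140 mice and from 6.13 to 7.78 CPM (median 6.99) in WT mice (log2 fold change 0.37, adjusted p = 4.13e-07), and the acetyltransferases Kat2b (0.22) and Crebbp (0.26), which binds CREB, rose. Hdac11 fell by 0.24. Polycomb genes, which keep developmental genes silent, held 9 rises and 7 falls in 35, but 16 and 1 on totals. Cbx8 had 14.3, 17.6 and 21.01 CPM in Q140 striatum, against 9.14, 11.2 and 12.1 CPM in WT striatum (log2 fold change 0.66, adjusted p = 6.31e-08), and Sfmbt2 ran from 7.89 to 10.6 CPM (median 9.49) in Q140 mice and from 1.35 to 3.403 CPM (median 2.33) in WT mice (log2 fold change 2.01, adjusted p = 3.83e-17). Subunits of the neuronal chromatin remodelling complex, Smarcd1 (-0.32), Dpf1 (-0.38) and Smarcd3 (-0.29), were among the 6 falls of 23, beside 5 rises (8 rises and 3 falls on totals). Tet2, which oxidizes methylcytosine, had 86.8, 90.96 and 98.95 CPM in Q140 striatum, against 45.4, 68.8 and 74.2 CPM in WT striatum (log2 fold change 0.48, adjusted p = 1.37e-06).

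RNA and transport factors were mixed. Neuronal splicing regulators held 7 rises and 9 falls in 24 (10 rises and 7 falls on totals), with Nova1 (0.30) and Srrm4 (0.51), which drives inclusion of microexons, among the rises and Celf1 (-0.31) among the falls. Nuclear pore and transport genes, a list often studied in repeat disorders, held 12 rises and 4 falls in 35. Nup35 had 5.799, 6.902 and 8.14 CPM in Q140 striatum, against 8.91, 10.7 and 12.6 CPM in WT striatum (log2 fold change -0.63, adjusted p = 1.23e-09), and Nup93 (0.33) and the importin Tnpo1 (0.23) rose with groups apart.

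Metabolic genes changed in both directions. The citric acid cycle and pyruvate dehydrogenase held 8 rises and 2 falls in 24, 12 and 1 on totals. Idh3a, a subunit of isocitrate dehydrogenase, had 155, 158 and 166 CPM in Q140 striatum, against 133, 138 and 145 CPM in WT striatum (log2 fold change 0.20, adjusted p = 6.82e-08), and Pdha1 rose by 0.16. Nuclear genes of complex I held 6 falls and 2 rises in 36, which became 1 fall and 5 rises on totals, and 6 falls and 5 rises without WT males 2 and 3, so no direction is given. Ndufs3 had the smallest p and changed by -0.26. Of 13 mitochondrial messages 2 fell, mt-Nd1 (-0.14) and mt-Nd2 (-0.16), both subunits of complex I. Cytosolic ribosomal protein genes were called in 6 of 77 (1 rise and 5 falls, 3 rises and 3 falls on totals, 3 rises and 4 falls without WT males 2 and 3), 7.79% against 32.1% of all genes. Gpx6, a glutathione peroxidase, ran from 1.71 to 2.62 CPM (median 2.03) in Q140 mice and from 7.68 to 17.6 CPM (median 12.9) in WT mice (log2 fold change -2.62, adjusted p = 7.77e-18), while mitochondrial superoxide dismutase, Sod2, rose by 0.18 and peroxiredoxin 5, Prdx5, changed by -0.21, both with groups apart. Msmo1 (-0.32), a cholesterol synthesis enzyme, and Cyp46a1 (-0.25), which clears brain cholesterol, were among 4 falls and 3 rises of 24 cholesterol genes (8 rises and 3 falls on totals).

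Of the lists for protein degradation, lysosomal and V-ATPase genes held 15 rises and 1 fall in 39 (22 and 1 on totals). Atp6v1a, a catalytic subunit of the proton pump, had 289.6, 301 and 315 CPM in Q140 striatum, against 245, 250.4 and 262 CPM in WT striatum (log2 fold change 0.25, adjusted p = 1.37e-11). Atp6ap1, an accessory subunit, ran from 266 to 285 CPM (median 277) in Q140 mice and from 227 to 247 CPM (median 237) in WT mice (log2 fold change 0.22, adjusted p = 7.35e-10). The other 13 rises lay between 0.09 (Gaa) and 0.24 (Glb1), and their groups overlapped. Proteasome genes held 2 rises and 5 falls in 34, but 11 and 0 on totals and 9 and 3 without WT males 2 and 3. Heat shock proteins and co-chaperones held 8 of each in 43, 16 rises and 2 falls on totals. Atf6, a sensor of the unfolded protein response, had 87.4, 92.6 and 99.9 CPM in Q140 striatum, against 100.5, 131 and 148 CPM in WT striatum (log2 fold change -0.47, adjusted p = 2.62e-10). Autophagy genes held 6 rises and 7 falls in 37 (16 and 2 on totals), among them Ulk1 (0.23), the initiating kinase, which rose with groups apart.

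Among stress and repair genes there were both rises and falls. The mismatch repair and repeat expansion list held 10 rises and 2 falls in 20, with a median of 0.12. These genes bear on how CAG tracts lengthen in somatic cells. Rfc5, a clamp loader subunit, ran from 7.16 to 9.599 CPM (median 8.6001) in Q140 mice and from 10.98 to 14.3 CPM (median 12.1) in WT mice (log2 fold change -0.58, adjusted p = 2.64e-10), the 1 member with groups apart. Double-strand break repair genes held 8 rises and 3 falls in 21. Prkdc, the DNA-dependent protein kinase, had 69.995, 72.3 and 79.5 CPM in Q140 striatum, against 42.6, 58.1 and 61.9 CPM in WT striatum (log2 fold change 0.38, adjusted p = 1.95e-08). Its partner Xrcc5 (0.36), known as Ku80, and Rbbp8 (0.60), known as CtIP, which starts end resection, rose with groups apart. Of p53 targets 7 rose and 2 fell in 25, with Plk2 at -0.31 and Rrm2b at 0.26. Hrk, a pro-apoptotic BH3 protein, ran from 27.9 to 38.2 CPM (median 33.3) in Q140 mice and from 57.1 to 91.6 CPM (median 71.9) in WT mice (log2 fold change -1.15, adjusted p = 2.88e-13). Interferon genes held 2 rises and 3 falls in 25 (3 rises and 0 falls on totals, 2 rises and 2 falls without WT males 2 and 3), and antigen presentation 1 fall in 13 (1 rise and 1 fall without WT males 2 and 3). Cd59a, which blocks the complement pore, had 5.11, 6.83 and 8.56 CPM in Q140 striatum, against 9.01, 11.3 and 22.9 CPM in WT striatum (log2 fold change -0.97, adjusted p = 1.17e-06). Cx3cl1, the neuronal ligand of the microglial receptor Cx3cr1, ran from 761 to 856 CPM (median 806) in Q140 mice and from 992 to 1134 CPM (median 1085) in WT mice (log2 fold change -0.41, adjusted p = 3.44e-13).

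Structural genes changed in both directions. Of 24 tested muscle and desmosome genes 8 fell and 5 rose, and in 10 the groups were apart, against 8.25% of all genes. Myh7b, a myosin heavy chain, had 4.42, 4.58 and 5.48 CPM in Q140 striatum, against 9.97, 11.3 and 13.2 CPM in WT striatum (log2 fold change -1.26, adjusted p = 7.39e-16). Tnnt2, troponin T, ran from 5.77 to 7.95 CPM (median 6.66) in Q140 mice and from 1.92 to 3.59 CPM (median 3.23) in WT mice (log2 fold change 1.17, adjusted p = 7.53e-11), and Ttn, titin, rose by 1.76, from low levels. Stmn2, which destabilizes microtubules in growing axons, had 105, 108 and 117 CPM in Q140 striatum, against 56.1, 61.1 and 80.04 CPM in WT striatum (log2 fold change 0.78, adjusted p = 5.03e-16). Dcx, doublecortin, of young neurons, ran from 30.9 to 42.9 CPM (median 36.3) in Q140 mice and from 22.3 to 29.5 CPM (median 25.02) in WT mice (log2 fold change 0.53, adjusted p = 3.65e-05). Kinesins and dynein held 14 rises and 4 falls in 31, and the groups were apart for all 4 falls, among them Kif17 (-0.34) and Kif5c (-0.19), and for 3 of the 14 rises. Of 20 tested members of the huntingtin list 4 rose and 5 fell, with 9 rises and 4 falls on totals and 4 rises and 8 falls without WT males 2 and 3. Rasd2, also called Rhes, a striatal GTPase that binds huntingtin, ran from 769 to 889 CPM (median 821) in Q140 mice and from 976 to 1268 CPM (median 1075) in WT mice (log2 fold change -0.43, adjusted p = 1.36e-09).

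In cortex of the same mice 26 genes were higher and 37 lower of 18116 tested (0.348%, 0.144% higher and 0.204% lower). Of these 63 genes 38 were called in the same direction in striatum, 60.3% of the cortical calls and 0.647% of the striatal ones, 15 rises and 23 falls. The overlap held calcium and cAMP genes of neurons: Camk2n1 (-0.49 in striatum, -0.29 in cortex), Arpp21 (-0.82 and -0.17) and Rgs4 (-0.75 and -0.15). It also held oligodendrocyte genes, Enpp6 (0.42 and 0.76) and Car2 (-0.42 and -0.17). Of the 38, 5 lie within 10 Mb of Htt on chromosome 5 (Abhd1, Atraid, Dpysl5, Gm2420 and Slc5a6), and Abhd1 rose more in cortex (1.28) than in striatum (0.83, adjusted p of the difference = 0.00341). These genes were named after their values were seen. Of the 18270 genes tested in striatum 195 lie within that distance, beside 5 of the 38 called in both tissues. In striatum alone 35.4% of the 195 were called, against 32.1% of all genes. That share does not describe the calls made in both tissues, and an excess near Htt among the 38 was not tested. The Q140 effect differed between tissues for 3349 of 18585 genes (18%, 8.46% higher and 9.56% lower in striatum). Of the 26 shared spiny neuron genes 24 had a lower Q140 effect in striatum than in cortex, and of 20 microglial genes 12 did. In cortex the microglial list had a median of 0.05 and no call lower by edgeR.

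The change had the same direction in females and males for most called genes. Of the 5869 called genes 5841 had the same sign in both sexes (99.52%), in a fit on the same mice. These genes were called on both sexes together, which favours the same sign in each. Taken by sex, females gave 1739 rises and 1902 falls, and males 2139 rises and 1961 falls. The effect differed between sexes for 5 genes, all lower in females, and for 1990 at an unadjusted p under 0.05. Pcdh11x, a protocadherin on the X chromosome, changed by 0.07 in females and 0.78 in males (adjusted p of the difference = 0.00352). Nucb2, the nesfatin precursor, changed by -0.42 in females and 0.01 in males (adjusted p of the difference = 0.0316). Gucy1a3, a soluble guanylyl cyclase subunit, fell in females (-0.17) and rose in males (0.16, adjusted p of the difference = 0.0316). Tmem196 and 1110015O18Rik rose in males (0.79 and 1.69) and were at -0.03 and 0.33 in females.

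Mice labelled Polq+/- give the Q140 comparison on another background, in 8 mice per genotype. Q140 Polq+/- against Polq+/- mice gave 2943 rises and 2798 falls. Calcium and calmodulin kinases fell in 16 of 24, RGS proteins in 10 of 17, retinoid genes in 8 of 17, and lysosomal genes rose in 16 of 39. Penk changed by -1.21, Htr2c by 0.73, Gng3 by 0.66, Ryr1 by -1.61 and Syp by 0.58 on the log2 scale in those mice.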

How the data were processed

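RNA from 16 striata (8 Q140, 8 WT) was extracted with Qiagen RNeasy kits and made into TruSeq stranded libraries, per the labels' protocols. Reads were processed with STAR 2.7.5c, SAMtools 1.10 and HTSeq 0.12.3 on GRCm38 (mm10), per the submitters' processing notes. No source used here states whether counting used strand, so genes that overlap an antisense partner are uncertain. Raw counts per gene and FPKM values were deposited by the authors for 48795 genes, and the FPKM follow the counts, a gene length and the library total. Neither table holds columns of other samples.

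Counts were tested with edgeR 4.0.16 (quasi-likelihood, robust, TMM, sex as covariate, filterByExpr) in R 4.3.3, over all 32 striatal libraries of the 4 genotypes, with Benjamini-Hochberg adjustment over 18270 genes. The fits were run on simulated data with few changed genes, rises and falls drawn alike and no library that stood apart. That run does not test the choice of scaling. Alternatives were DESeq2 1.42.0, limma 3.58.1 on log2 FPKM, other scalings and left-out libraries. The 115 gene lists and the comparison were chosen with earlier results of these data known. Genes named are Htt, Polq, ranks 11 to 25 by log2 fold change in each direction (mean of at least 1 CPM), up to 5 called members of smallest p per list and genes that define a cell class, and others are said to be chosen after their values were seen. Some members are not reported here. Same-numbered Q140 and WT mice correlated at -0.022 to 0.38 (median 0.116), so the numbers do not pair them. Each library is 1 mouse. The p-values set the group difference against the spread between mice, which includes counting error and was estimated over all 32 striatal libraries. A gene of few reads has a fold change of low precision.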

Additional observations from a re-analysis of the deposited data

Results flagged for a closer look

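Among the 251 named genes in 2 groups of 8 mice, 46 group values had 1 mouse far from the others (Dixon's 95% criterion on the gap to the nearest mouse). Chance flags about 1 in 20 groups. CPM are given, with the group median. Q140 female 1 was low for Slc32a1 (335, group median 352). Q140 female 2 was high for Ipcef1 (10.5, group median 8.93) and Ttr (14.1, group median 2.97) and low for Itpka (98.8, group median 108), Rxrg (101, group median 125) and Sst (100.5, group median 118). Q140 female 3 was low for Jag1 (6.92, group median 9.23). Q140 female 4 was high for Rbbp8 (3.73, group median 3.26). Q140 male 1 was high for Xrcc5 (23.9, group median 22.1) and low for Gda (168, group median 198). Q140 male 2 was high for Cnrip1 (29.9, group median 27.1). Q140 male 3 was high for Cx3cr1 (51.5, group median 47.3) and Kcnj4 (197, group median 177). WT female 1 was high for Efnb3 (229, group median 199). WT female 2 was high for Serpinb1b (7.34, group median 3.84). WT female 4 was high for Chat (40.2, group median 33.5). 

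WT male 2 was flagged for 15 genes. It was high for Calb2 (12.1, group median 1.77), Cbln1 (34.7, group median 0.837), Cbln3 (60.7, group median 0.145), Crh (2.77, group median 0.322), Cux2 (16.9, group median 12.3), Faah (20.6, group median 14.9), Otof (54.6, group median 38.4), Pvalb (25.1, group median 7.04), Rtn4r (3.87, group median 1.82), Slc17a7 (23.1, group median 2.91), Srrm4 (21.7, group median 14.4), Syt2 (169, group median 95.1) and Vwa5b2 (23.2, group median 14.04). It was low for Rarb (131, group median 152) and Slitrk6 (2.51, group median 4.05). That mouse also held the cerebellar genes. WT male 3 was flagged for 15 genes. It was high for Atraid (51.7, group median 44.4), Ndufs3 (64.95, group median 57.7), Penk (2210.0, group median 1879.9), Pkig (79.7, group median 64.04), Prdx5 (142, group median 117) and Sst (159, group median 121). It was low for Htt (137, group median 212), Itpr1 (1253, group median 1688), Nos1 (77.7, group median 116), Prkcb (641, group median 849), Prkdc (42.6, group median 58.1), Ryr1 (115, group median 180.3), Shank3 (508, group median 659), Tet2 (45.4, group median 68.8) and Unc13b (18.7, group median 23.7). That mouse also had low values of long genes and high values of short ones. The part of either in the group differences was not tested, and counts without both mice are given in the report.

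The Q140 effect, as a log2 fold change in females minus that in males, differed for Nucb2 (-0.43), Gucy1a3 (-0.33), Pcdh11x (-0.71), Tmem196 (-0.82) and 1110015O18Rik (-1.36), by the test of the difference (edgeR, adjusted p under 0.05). Without WT males 2 and 3 it differed for 2 genes. Between striatum and cortex of the same mice the effect differed for 3349 genes.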

How the results depend on the processing

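The total of called genes kept within 1.5 times of 5869 under DESeq2 (5971), no low-count filter (5351), only the 16 libraries (4957), no sex term (5837) and a term for the column of the well address in the labels (5335). A replicate block, though the numbers do not pair the mice, gave 5878, and it ended the calls of Calb2 (adjusted p = 0.0744), Cbln1 and Cbln3 and moved 7 of 230 list counts by over 1.5 times. Scaling moved the split: library totals gave 5232 higher and 1849 lower, and FPKM gave 5355 and 1811 with a pseudocount of 0.1 and 5362 and 1805 with 1; the cause was not tested. Within well columns 2, 3 and 4, which hold fewer mice, 1603, 949 and 912 genes were called (771, 413 and 267 higher, 832, 536 and 645 lower). Of the compared mice, column 2 held Q140 females 1 and 2 and WT males 2 and 3, the WT libraries that stood apart. Among them genotype goes with sex and with those libraries, so the column 2 counts cannot be given to genotype alone. Columns 3 and 4 held 3 Q140 mice and 1 WT mouse each, so their counts rest on 1 WT library. The within-column counts are therefore no check of the main result. Leaving out each mouse gave 5511 to 6202 called, 2878 to 3283 higher and 2629 to 2919 lower. Between tissues, totals gave 2910 higher; leaving out WT male 2 or 3 gave 3539 to 3844 called. Between sexes, 2 genes were called on totals or without WT males 2 and 3, and 3 to 5 without 1 of them, all lower in females. Striatum-enriched genes lower ranged from 237 to 250 with 1 mouse left out, and cortex-enriched genes lower numbered 22 on FPKM with either pseudocount. Groups did not overlap in 769 to 920 rises and 778 to 1009 falls with 1 mouse left out. They did not overlap in 1378 rises on totals, nor in 1194 falls without both WT mice, which has fewer samples; these alternatives were chosen after seeing the data. Of 251 named genes 2 reversed: Cbln1 and Cbln3, the cerebellar genes of WT male 2. Cbln1 stood at -2.452 to 0.043 with 1 mouse left out and at 0.025 without both WT mice, and Cbln3 at -4.127 to 0.996 and at 0.868. Another 7 lost their call and 8 gained one under some setting, and 133 of 230 list counts moved by over 1.5 times under at least 1 setting. Low counts limit Ttn, whose log2 change shrinks to 0.02 with a pseudocount of 1 FPKM.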

Other observations

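Called genes were spread unevenly over the chromosomes, as counted after the values were seen. On the X chromosome 187 of 673 tested genes were higher in Q140 (27.8%) and 60 lower (8.92%), against 12.5% to 24.2% higher on the autosomes. In females 18.6% of its genes were higher and 5.94% lower, and in males 20.4% and 4.75%. The percentages were 27.3 and 10.3 without WT males 2 and 3, and 26.2 and 9.96 in Q140 Polq+/- against Polq+/- mice. In cortex 0.307% of its genes were higher and none was lower by edgeR. The X-linked genes named above included 7 that rose, Htr2c, Syp, Glra2, Dcx, Pcdh19, Atp6ap1 and Pdha1, and Phex, which fell.

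On chromosome 18, 116 of 480 genes were higher (24.2%) and 63 lower (13.1%), and 34 of them rose by 0.5 or more on the log2 scale (7.08%, against 393 genes or 2.15% of all tested). In Q140 Polq+/- against Polq+/- mice 20.2% were higher and 14% lower. The chromosome holds 2.63% of the tested genes. Of the 15 rises ranked 11 to 25, 7 lie there: Dsg1c, Dsg2, Klhl14, Greb1l, Pcdhb2, Pcdhb3 and Zbtb7c.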
